A study of Mus musculus with 8 samples.

Results

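Alternative activation is the programme that macrophages take up when interleukin-4 or interleukin-13 binds receptors containing the interleukin-4 receptor alpha chain, through Janus kinases and the transcription factor STAT6. Its usual mouse markers are an arginine-degrading enzyme, secreted lectin-like and resistin-like proteins, and endocytic receptors for sugars and haemoglobin, and such cells are known for their part in tissue repair and in defence against worms. Interferon-γ (IFN-γ), the cytokine neutralised in the study described here, drives the opposing classical programme of inflammatory cytokines, chemokines and nitric oxide. The genes followed were Arg1, Chil3, Chil4, Retnla, Mrc1, Cd163, Mgl2, Clec10a, Tgm2 and Dab2. They were measured by every probe set whose platform annotation names exactly 1 of these symbols, which gave 18 probe sets of 34958 with a single symbol and 45101 in all, and 10 of the 18194 genes those 34958 name. All 10 genes and all 18 probe sets passed the filter on dim probe sets. Tgm2 had 6 probe sets, Dab2 had 4 and each of the other genes had 1. The genes were chosen by name with their intensities in the protected and diabetogenic arms already seen, so their differences between the arms are given as a description, without p-values.

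The arrays held RNA from laser-captured pancreatic islets of NOD.Scid mice, a diabetes-prone strain whose Scid mutation leaves it without T and B cells of its own while its macrophages remain. Untreated islets were taken at day 0. Diabetogenic islets came from mice given CD4+ T cells of the BDC2.5 line, whose transgenic receptor recognises beta cells, and were taken 3, 4 and 8 days later. Protected islets came from mice given the same cells and 2 injections of an antibody against IFN-γ, on day -1 and day 2 relative to the transfer, and were taken on days 3, 4, 5 and 8. All injected mice therefore carried the same transferred T cells, and no group received a control antibody, so neutralisation and antibody injection cannot be told apart. Per the submitters' design text the diabetogenic islets of day 5 were too swollen to dissect. Each of the 8 arrays was made from the pooled RNA of 5 mice, with 1 array per arm and day. The spread between mice is therefore not measured, and the arrays of an arm are different days. The ages and sexes of the mice are not given in the sources used here.

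Values are the deposited probe set intensities on a linear scale. Differences are on the scale log2(intensity + 2.155), on which the change of a dim gene is understated. Folds are taken from these differences, so they are smaller than ratios of the printed intensities, which are given as times. The median of an array lay between 3.14 and 3.96, values bottom out near 1, and intensities of different probe sets are not compared with each other. The share of bright probe sets, those at 8 times the array's median or above, ran from 0.850% on the diabetogenic array of day 4 to 5.34% on the protected array of day 3. For the protected pool of day 4 it was 2.24%, and on day 8 it was 2.01% for the diabetogenic pool and 3.09% for the protected pool. Spiked hybridisation controls had a median of 1.48 to 2.29 on the untreated and day 3 arrays and of 551 to 1712 on the 5 later ones, so both arms of a matched day were alike in this respect, whereas the untreated array differed from days 4, 5 and 8. The 3' to 5' ratio of Actb, which rises when RNA or its copies are short, was 5.54 for the diabetogenic and 5.01 for the protected pool of day 3, 2.25 against 9.24 on day 4, and 13.8 against 10.5 on day 8. It was lowest in untreated islets (1.86) and highest on day 5 of the protected arm (24.2), the array on which most of the genes peaked, while the same ratio of Gapdh was 5.14 and 6.40 there and ran from 2.78 to 19.0 over all arrays. The part of these differences in the results was not tested. Ins2, the insulin gene that marks beta cells, stood between 3409 and 6359 on all 8 arrays. Iapp, also a beta cell gene, stood at 505 in untreated islets and at 99.7 on day 4 of the diabetogenic arm. On the other injected arrays Iapp stood at 725 to 1143. Many other beta cell genes did not keep their level. Over the 12 beta cell genes fitted the median difference from untreated islets was -2.51 in the diabetogenic and -1.75 in the protected arm, and the glucose transporter gene Slc2a2, for example, went from 161 in untreated islets to 1.76 to 11.7 on the arrays of days 4, 5 and 8. Between the arms all 12 were positive (medians 0.06, 0.98 and 0.60 on days 3, 4 and 8), with none passing limma's test and 1 at an unadjusted p under 0.05.

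The genes of the alternative programme were brighter in protected than in diabetogenic islets for most members, with Chil3 and Retnla furthest apart. Chil3 was 14.7-fold higher, Retnla 5.81-fold, Arg1 4.66-fold, Cd163 3.71-fold and Dab2 3.68-fold over the 3 matched days. Mgl2 and Mrc1 differed by less, Tgm2 by 2.89-fold with an SE wider than the difference, and Chil4 and Clec10a by under 1.2-fold. Of the 10 genes, 9 were higher in the protected arm on all 3 matched days, which held for 20.1% of the 16396 genes fitted. For 6 genes the protected array was at least 2-fold above the diabetogenic one on all 3 days, against 0.128% of all genes. For 5 genes (Chil3, Retnla, Cd163, Mgl2 and Dab2) every protected array lay above every diabetogenic array, against 2.34% of all genes. On days 3, 4 and 8, 7, 7 and 6 of the genes were at least 2-fold higher in the protected arm, against 0.506%, 14.1% and 13.9% of all genes. These counts come from the contrast that was in view when the genes were chosen, so nothing is read from them. In a mixed tissue such as this, fewer cells of a type and less RNA per cell cannot be told apart.

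**Figure D1:**
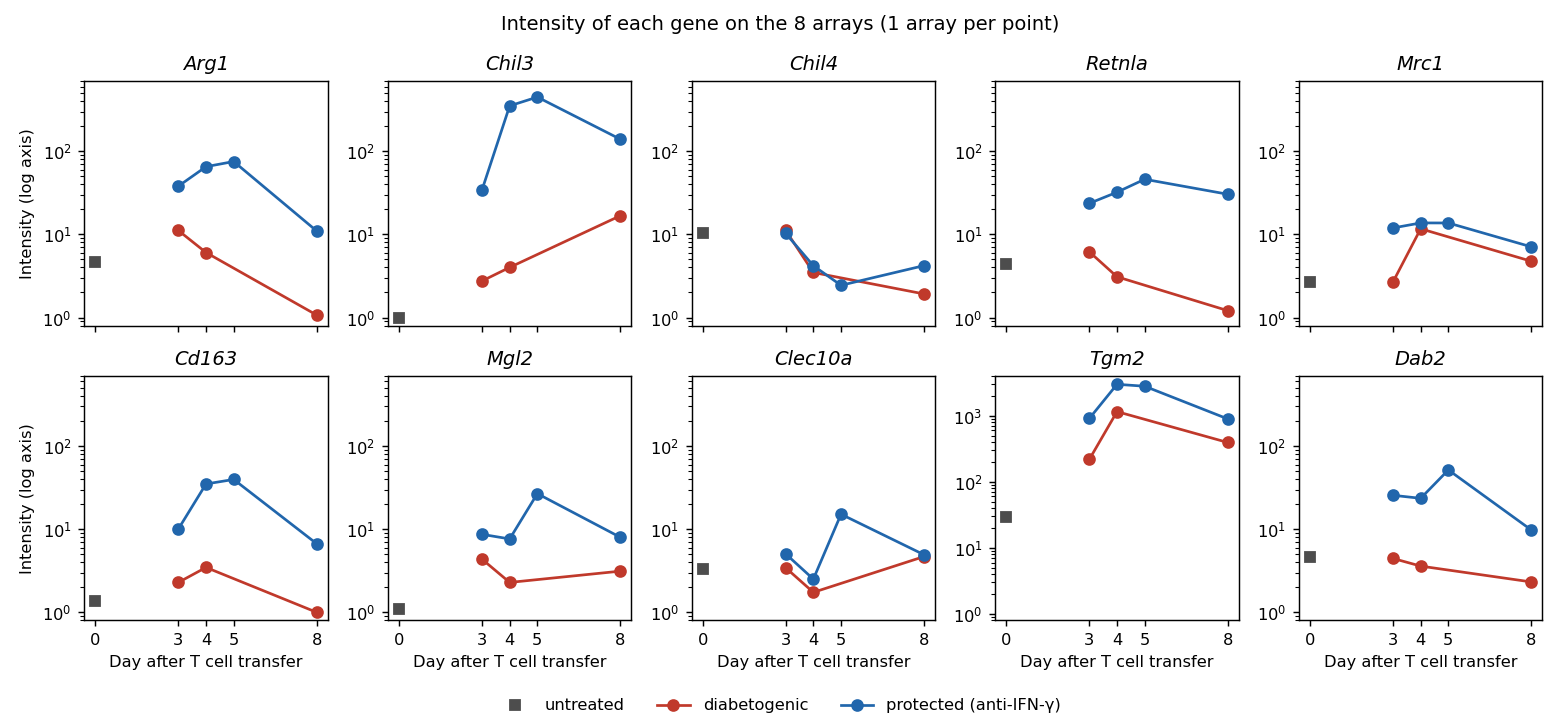
Intensity (log axis) of the probe set used for each gene against the day after T cell transfer, 1 point per array, with grey squares for untreated islets, red for the diabetogenic arm and blue for the protected arm; the Tgm2 panel has a higher axis range than the others. Blue points lie above red ones on all matched days for every gene except Chil4, whose points of days 0 and 3 stand at 10.3 to 11.2 in all 3 groups.

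Chil3 encodes Ym1, a chitinase-like lectin without chitinase activity that macrophages secrete. Its neighbour Chil4, which encodes the closely related Ym2, is the next gene in the RefSeq annotation, with 0 genes between them. Retnla encodes the small secreted protein known as FIZZ1 or RELM alpha, and it is a standard target of STAT6. The stretches just upstream of the annotated starts of these 3 genes are shown because the first 2 are near copies of each other whose probe sets behaved differently, and because all 3 hold a palindromic motif of the family bound by STAT proteins. The sequences are from RefSeq (build GRCm38.p6), 250 bases each, printed 5′ to 3′ on the gene's own strand and ending at the base before the start. They lie at chr3:106167565-106167814 on the minus strand for Chil3, chr3:106219480-106219729 on the minus strand for Chil4 and chr16:48842359-48842608 on the plus strand for Retnla. Capitals mark TTCNNNGAA in the first 2 and TTCNNNNGAA, the spacing that STAT6 is known to prefer, in the last.
Chil3: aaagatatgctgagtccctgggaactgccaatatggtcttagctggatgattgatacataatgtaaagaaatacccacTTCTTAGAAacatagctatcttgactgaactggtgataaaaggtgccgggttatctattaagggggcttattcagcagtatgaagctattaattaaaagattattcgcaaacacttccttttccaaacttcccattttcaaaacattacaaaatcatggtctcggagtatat
Chil4: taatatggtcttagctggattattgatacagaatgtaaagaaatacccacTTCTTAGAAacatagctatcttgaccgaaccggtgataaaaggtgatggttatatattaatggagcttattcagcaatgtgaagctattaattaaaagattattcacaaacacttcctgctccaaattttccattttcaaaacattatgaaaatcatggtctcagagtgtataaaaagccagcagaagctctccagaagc
Retnla: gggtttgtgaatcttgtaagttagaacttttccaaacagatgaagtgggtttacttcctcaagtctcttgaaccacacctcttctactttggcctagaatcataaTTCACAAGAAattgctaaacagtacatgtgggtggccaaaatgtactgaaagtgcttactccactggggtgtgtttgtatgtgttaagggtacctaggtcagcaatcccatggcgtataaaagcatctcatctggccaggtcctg

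Both motifs read the same on either strand, so each was searched once, and their different spacing keeps a single match from counting as both. TTCNNNNGAA occurs in 5.85% of the 32851 windows of this length in the RefSeq table and TTCNNNGAA in 7.02%. In the Chil3 window 163 bases separate the 9-base motif from the start and in the Chil4 window 191, with the same letters TTCTTAGAA in both. The Retnla match lies 135 bases from the start. The 300-base windows of Chil3 and Chil4 (250 bases before to 50 after the start) align over 271 bases, of which 251 are identical (92.6%). Of the other members, 1 of the 2 windows of Dab2 holds TTCTTAGAA, 63 bases from the start, and the windows of Mrc1, Cd163 and Mgl2 hold neither set of letters. Windows were found for 7 of the 10 genes, and Arg1, Clec10a and Tgm2 had none in the table used. A match is a set of letters and does not show that a factor binds there.

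The intensity of Chil3 was 1 on the untreated array, at the bottom of the scale. Diabetogenic islets gave 2.75, 4.01 and 16.8 (days 3, 4 and 8), and protected islets gave 34.3, 352, 449 and 139.5 (days 3, 4, 5 and 8), the order of days used for all values below. Every protected array lay above every diabetogenic one, and Chil3, like Clec10a, was brightest in the diabetogenic arm on day 8. On the log2 scale the arms differed by 2.89 on day 3, 5.84 on day 4 (57.5-fold) and 2.90 on day 8, with a mean of 3.88 ± 0.54 (limma's SE). The SEs between the arms rest mostly on genes of like level, and the SD of Chil3 between the 3 days was 1.70. Without the day 4 pair, in which the diabetogenic array had the smallest share of bright probe sets, the mean was 2.90.

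Chil4 did not follow its neighbour. Untreated islets gave 10.4, diabetogenic islets 11.2, 3.48 and 1.92, and protected islets 10.3, 4.20, 2.44 and 4.21. The 3 highest values were those of untreated islets and of day 3 in either arm, and the arms overlapped. Protected minus diabetogenic came to -0.10, 0.17 and 0.64 on days 3, 4 and 8, with a mean of 0.24 ± 0.35. A further probe set, which the annotation assigns to both Chil4 and Chil3 and which is therefore no member, gave 3.04 in untreated, 3.73, 3.01 and 4.46 in diabetogenic and 25.3, 51.3, 80.1 and 19.0 in protected islets. It was high on the 4 protected arrays and peaked on the same day as Chil3, and its name alone does not say which of these near-identical transcripts it measured.

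Retnla gave 4.38 in untreated islets, 6.17, 3.09 and 1.21 over the diabetogenic days and 23.6, 32.2, 46.1 and 30.4 over the protected days. The arms did not overlap, and the lowest protected array was still above the untreated one. Retnla differed by 1.63 on day 3, 2.71 on day 4 and 3.28 on day 8 (9.68-fold), with a mean of 2.54 ± 0.40. Its day 8 difference was the largest of the 10 genes on that day, and its protected intensity on day 8 was 66.0% of its day 5 value.

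Arg1 encodes arginase 1, which splits arginine into ornithine and urea and so competes with nitric oxide synthase for its substrate. Its intensity was 4.64 in untreated islets, 11.1, 6.05 and 1.07 in the diabetogenic arm and 38.0, 65.3, 75.3 and 11.0 in the protected arm. The arms overlapped only through day 8 of the protected arm (10.98) and day 3 of the diabetogenic arm (11.14), and on each matched day the protected array was higher. The differences were 1.60, 3.04 and 2.03 on days 3, 4 and 8, with a mean of 2.22 ± 0.41. In the diabetogenic arm Arg1 stood highest on day 3 and at the bottom of the scale on day 8.

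**Figure D2:**
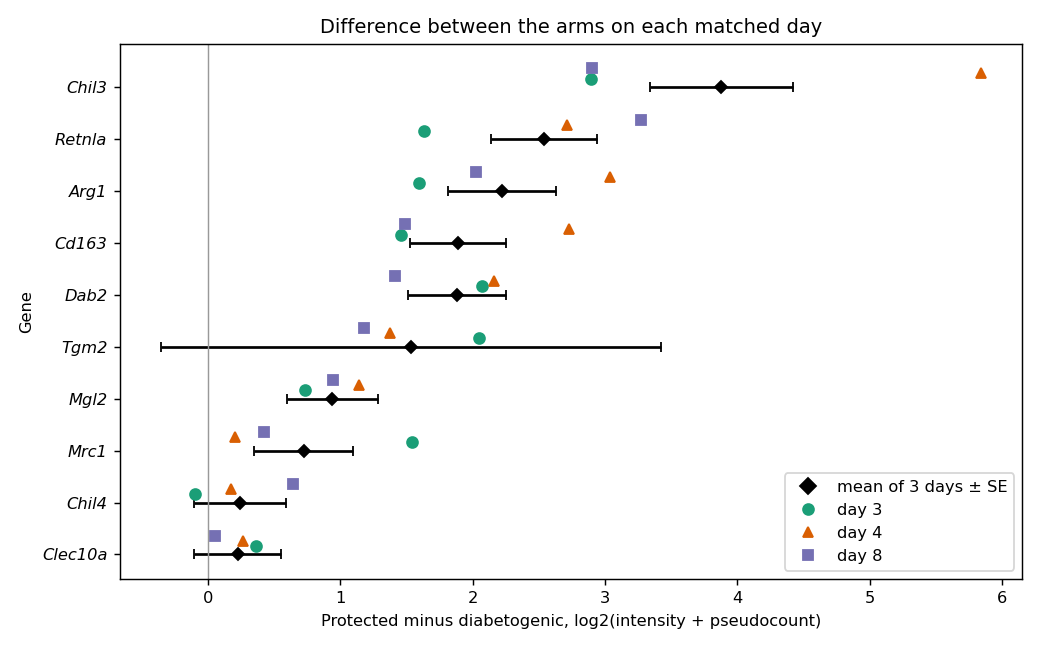
Difference between the protected and diabetogenic arrays of each gene on the log2(intensity + 2.155) scale, with coloured symbols for days 3, 4 and 8 and a black diamond with bars for the mean of the 3 days ± SE. The means run from 3.88 for Chil3 to 0.22 for Clec10a; the only value below 0 is Chil4 on day 3, and the SE of Tgm2 (1.89) comes mostly from the variance trend over genes as bright as Tgm2.

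Among the receptors, Cd163, which takes up haemoglobin bound to haptoglobin, differed most. Untreated islets gave 1.37, the diabetogenic arm 2.29, 3.47 and 1, and the protected arm 10.1, 35.0, 39.7 and 6.69, with no overlap between the arms. Its differences were 1.46, 2.72 and 1.49 on days 3, 4 and 8 (mean 1.89 ± 0.36). On day 8 its protected intensity was down to 16.9% of its day 5 value.

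Mrc1 encodes the mannose receptor CD206, an endocytic receptor for sugars ending in mannose. Its intensity was 2.67 in untreated islets, 2.68, 11.7 and 4.75 in the diabetogenic arm and 11.9, 13.7, 13.7 and 7.08 in the protected arm. The arms overlapped, because the diabetogenic array of day 4 lay above the protected array of day 8. Mrc1 differed by 1.54 on day 3 but by 0.20 on day 4 and 0.42 on day 8 (mean 0.72 ± 0.38). Without the day 3 pair the mean was 0.31. The arms of Mrc1 thus drew close on day 4, the day on which the differences of Chil3, Arg1, Cd163 and Dab2 were largest.

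Mgl2 and Clec10a are adjacent genes (0 genes between them in the RefSeq annotation) for the macrophage galactose-type lectins, which bind galactose and N-acetylgalactosamine and are also made by some dendritic cells. Mgl2 gave 1.09 in untreated islets, 4.36, 2.29 and 3.13 in the diabetogenic arm and 8.68, 7.64, 26.8 and 7.99 in the protected arm, without overlap. Its differences of 0.73, 1.14 and 0.94 on days 3, 4 and 8 were the most even of the members whose arms did not overlap (mean 0.94 ± 0.34, SD between days 0.20). Clec10a gave 3.28 in untreated islets, 3.44, 1.74 and 4.69 in the diabetogenic arm and 5.05, 2.51, 15.2 and 4.93 in the protected arm. Apart from the protected array of day 5, all its values lay between 1.74 and 5.05 in all 3 groups, near the array medians, and the arms differed by 0.36, 0.26 and 0.05 (mean 0.22 ± 0.33). Both genes thus shared a single high array, day 5 of the protected arm, at 3.09 and 3.00 times the next highest protected array.

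Day 5 has no diabetogenic counterpart, so this height enters no comparison between the arms. On that array the 9 dendritic cell markers fitted summed to 121.5, against 28.0 in untreated islets, 31.9 to 48.7 in the diabetogenic arm and 52.7, 50.3 and 181 in the protected arm on days 3, 4 and 8. Of these markers Itgax (41.7) and Batf3 (14.4) were highest on the same day 5 array as Mgl2 and Clec10a, and Fscn1 (94.4) and Cd209a (30.4) on day 8 of the protected arm. The others peaked elsewhere. Zbtb46 (11.1) and Ccr7 (5.03) were highest on day 4 of the diabetogenic arm and Xcr1 (11.0) and Siglech (6.37) on its day 8. Flt3 (6.47) was highest on day 3 of the protected arm. The part of dendritic cells in the values of Mgl2 and Clec10a was not tested.

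Tgm2 encodes tissue transglutaminase, which cross-links proteins and is an alternative activation marker in both mouse and human macrophages. The probe set used, the brightest of its 6, gave 29.4 in untreated islets, 218, 1151 and 393 in the diabetogenic arm and 907, 2982, 2787 and 893 in the protected arm. Tgm2 stood above untreated islets by at least 2.80 on the log2 scale on every injected array of either arm, which held for no other member. On each matched day the protected array was higher, by 2.05 on day 3, 1.37 on day 4 and 1.18 on day 8 (mean 1.53 ± 1.89). The ranges of the arms overlapped. The SD of Tgm2 between the 3 days was 0.45, so this SE comes mostly from the variance trend over genes as bright. The SE was unstable, at 0.21 without the day 4 pair, 6.03 without day 3 and 9.25 without day 8. The 3 bright probe sets of Tgm2 gave means of 1.46 to 1.54. Of the dimmer ones, 1 ran from 1.18 in untreated islets to 68.4 on day 4 of the protected arm and gave 1.10, with -0.23 on day 8. The remaining pair stayed between 1 and 9.74 and gave 0.22 and -0.34. All 3 bright probe sets have names ending in _x_at, which Affymetrix gives to sets with some probes that may bind other transcripts, so their height may not be that of Tgm2 alone.

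Dab2 encodes an adaptor protein of clathrin-mediated endocytosis. The probe set used gave 4.60 in untreated islets, 4.45, 3.60 and 2.32 in the diabetogenic arm and 25.6, 23.5, 51.7 and 9.77 in the protected arm. Every protected array lay above the untreated array and every diabetogenic array below it, a pattern seen for 0.384% of all genes. The diabetogenic array of day 3 was nearly level with it, at -0.03 on the log2 scale. The arms were in view when Dab2 was chosen, so nothing is read from this share. The differences between the arms were 2.07, 2.16 and 1.41 on days 3, 4 and 8 (mean 1.88 ± 0.37). The 3 other probe sets of Dab2 were dim, with mean intensities of 4.18 to 5.05, and gave -0.16, -0.06 and 0.91, so the difference of Dab2 rests on 1 probe set. With the probe sets of a gene averaged, it was 0.64.

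**Figure D3:**
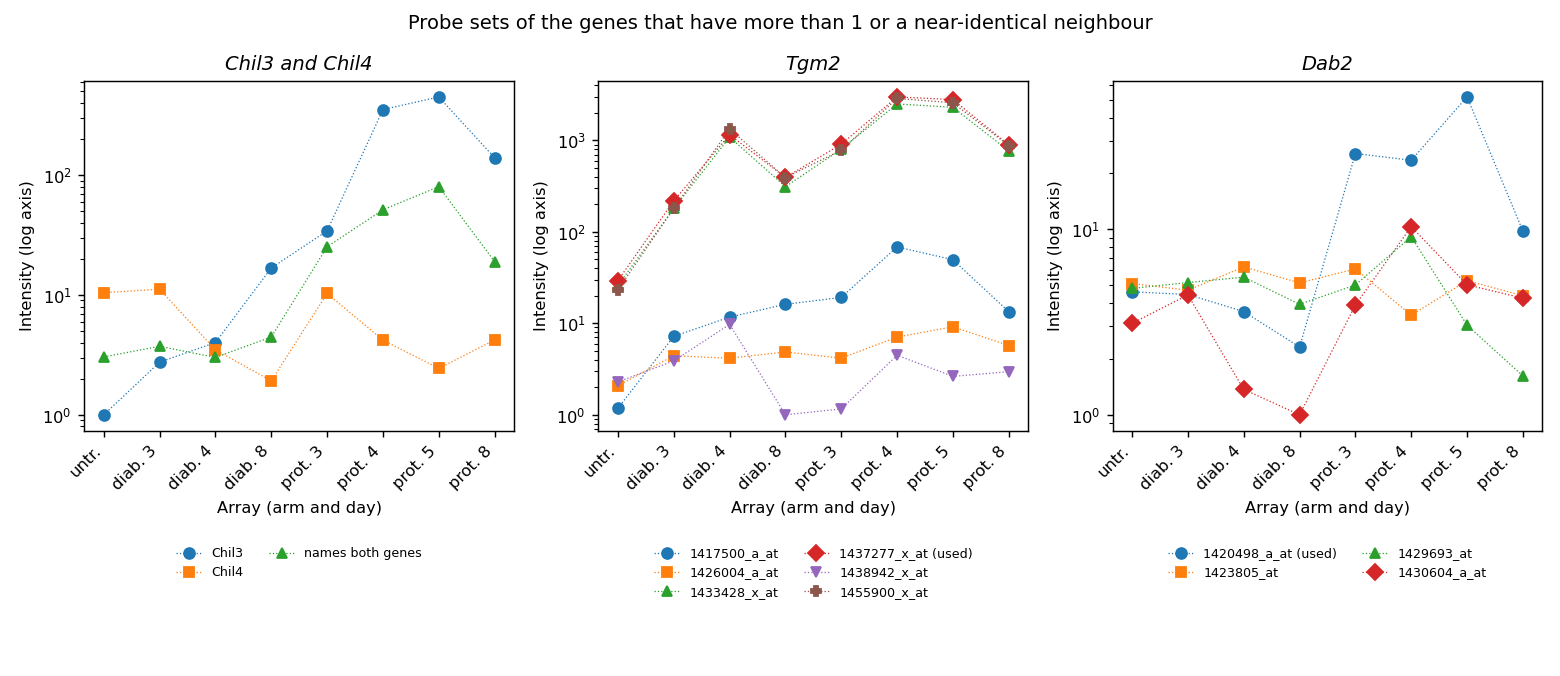
Intensity (log axis) of each probe set on the 8 arrays, ordered as untreated, diabetogenic days 3, 4 and 8 and protected days 3, 4, 5 and 8, for Chil3, Chil4 and the set naming both (left), Tgm2 (middle) and Dab2 (right). The set naming both Chil genes reaches 80.1 on day 5 of the protected arm as Chil3 does 449, 3 sets of Tgm2 coincide at high intensity, and 1 set of Dab2 separates the arms while its 3 others stay between 1 and 10.3.

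In the protected arm 7 of the 10 genes (Arg1, Chil3, Retnla, Cd163, Mgl2, Clec10a and Dab2) were highest on day 5, 2 (Mrc1 and Tgm2) on day 4 and Chil4 on day 3. None was highest on day 8. Over all genes fitted, the highest protected array was day 3 for 29.3%, day 4 for 24.4%, day 5 for 25% and day 8 for 21.3%. With 1 array per day the order of neighbouring days cannot be tested. The values of days 4 and 5 were close for Mrc1 (13.74 and 13.72), Tgm2 (2982 and 2787), Cd163 (35.0 and 39.7) and Arg1 (65.3 and 75.3). They were far apart for Mgl2, Clec10a and Dab2, for which day 5 stood at 3.09, 3.00 and 2.02 times the next highest protected array. From day 5 to day 8, Arg1, Cd163 and Dab2 dropped by 2.56, 2.24 and 2.17 on the log2 scale, Chil3, Tgm2, Mgl2 and Clec10a by 1.67, 1.64, 1.51 and 1.29, and Mrc1 and Retnla by 0.78 and 0.57, while Chil4 was 0.47 higher.

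**Figure D4:**
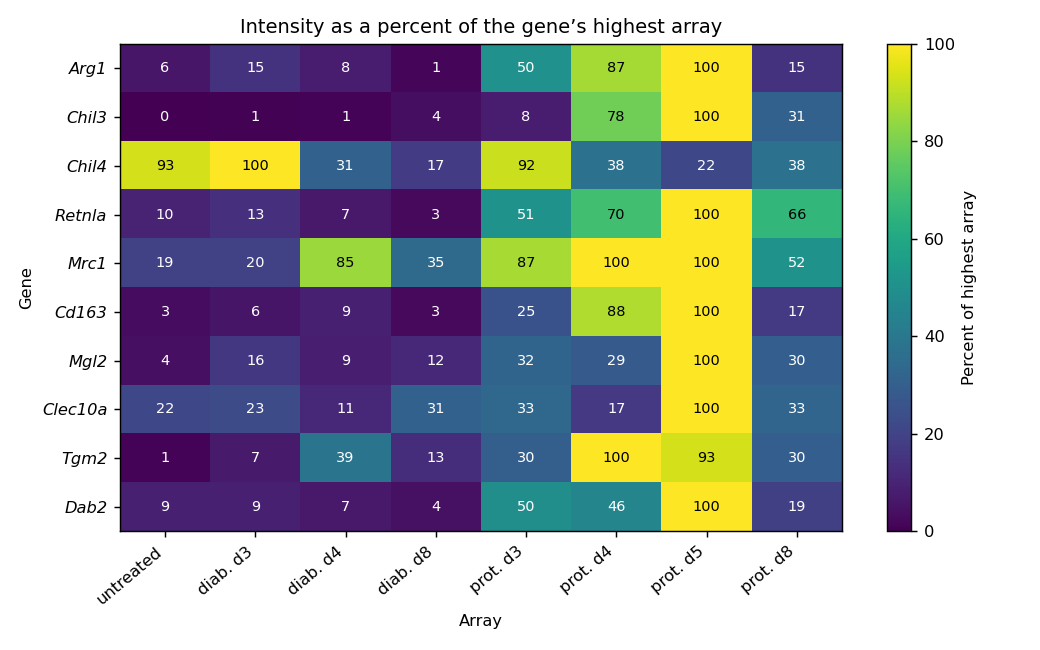
Intensity of each gene (rows) on each array (columns) as a percent of that gene's highest array, printed in each cell and coloured from 0 to 100. The protected array of day 5 is at 93 or above for every gene except Chil4 (22), whose highest cells are the untreated array (93) and the day 3 arrays (100 and 92).

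Chil4 stood apart from the rest and Clec10a, Mrc1 and Tgm2 followed them loosely. Over the 8 arrays the correlation of a gene's log2 profile with the mean of the other 9 was 0.969 for Dab2, 0.946 for Cd163, 0.928 for Arg1, 0.921 for Retnla, 0.916 for Mgl2 and 0.848 for Chil3. It was 0.711 for Tgm2, 0.709 for Mrc1, 0.525 for Clec10a and -0.32 for Chil4. These are descriptions over 8 arrays that share their arm and day structure. Among the 3533 other genes with a mean intensity of at least 10, the profiles most like the mean of the 10 were those of the chemokine genes Ccl24 (r = 0.981) and Ccl9 (0.929), Rab44 (0.965), the fibronectin gene Fn1 (0.962), the metalloproteinase inhibitor gene Timp1 (0.936) and Mcrip1 (0.927). Ccl24 was also the nearest profile to Arg1 (0.940), Cd163 (0.983) and Dab2 (0.946). The nearest were Ccl8 for Chil3 (0.981), Reep3 for Retnla (0.946), S100a6 for Mgl2 (0.963), Itgb5 for Clec10a (0.955), Ccl17 for Tgm2 (0.967), 3000002C10Rik for Mrc1 (0.890) and Phyh for Chil4 (0.963). Phyh stood at 32.8, 32.1 and 37.8 on the untreated, diabetogenic day 3 and protected day 3 arrays and at 7.69 to 15.4 on the other 5, the same arrays that were high and low for Chil4.

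Against untreated islets, the protected arm stood higher for 9 of the 10 genes, with a median difference of 2.21 against -0.04 over all genes, and the diabetogenic arm stood about level, with a median of 0.17 against -0.10. For 8 of the 10 genes every protected array lay above the untreated one (16.8% of all genes). Every diabetogenic array did so for 4 (Chil3, Mrc1, Mgl2 and Tgm2), against 18% of all genes, though Mrc1 on day 3 was level (2.68 against 2.67). Mean differences of the protected arm were 5.75 ± 1.31 for Chil3 (53.7-fold), 5.68 ± 1.18 for Tgm2 (51.2-fold), 2.58 ± 1.04 for Arg1, 2.52 ± 0.81 for Cd163 and 2.39 ± 0.78 for Retnla. They were 2.03 ± 0.66 for Mgl2, 1.95 ± 0.81 for Dab2, 1.48 ± 0.70 for Mrc1 and 0.56 ± 0.64 for Clec10a, and Chil4 was lower by 0.86 ± 0.69. None of the members passed in limma's test (adjusted p = 0.9998 for each), nor did any of the 16396 genes, of which 371 (2.26%) had an unadjusted p under 0.05. Such a p was found for 8 of the members, all but Chil4 and Clec10a. The protected arrays are the same ones that were in view when the members were chosen.

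In the diabetogenic arm the differences from untreated islets were 3.88 ± 1.22 for Tgm2 (14.7-fold) and 1.40 ± 1.35 for Chil3. The others lay between -0.90 (Chil4) and 0.72 (Mgl2), with Arg1 at 0.06 ± 1.07. By limma 0 genes passed (450, or 2.74%, at an unadjusted p under 0.05, among them Tgm2 alone of the members), and the members' adjusted p ran from 0.894 to 0.995. The signs of Arg1, Retnla, Clec10a and Dab2 in this comparison were not the same under all 16 alternatives tried. Both comparisons share the untreated array, and each of their SEs holds the spread between days, pooled over both arms. On day 3 alone, where the spiked controls of the injected and untreated arrays were alike, the protected array was above untreated by 4.85 for Tgm2, 3.53 for Chil3, 2.56 for Arg1, 2.04 for Dab2, 1.98 for Retnla, 1.79 for Cd163, 1.74 for Mgl2 and 1.55 for Mrc1. On the same array Clec10a was 0.41 above untreated and Chil4 was level with it (-0.02). The diabetogenic array of that day was above untreated by 2.80 for Tgm2, 1.01 for Mgl2 and 0.97 for Arg1. For the others its difference lay between -0.03 and 0.64.

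The rest of the pathway was read from gene lists in the comparison of the arms. The lists were chosen with earlier results of these data known. Their counts and p-values are therefore given as descriptions, and nothing is read from which genes passed. In that comparison limma called 15 of 16396 genes higher (0.0915%) and 3 lower (0.0183%) in protected islets, at an adjusted p under 0.05. The ligands, receptors and signal carriers of interleukin-4 and interleukin-13 were represented by 14 genes, of which 8 were positive and 6 negative (median 0.46, against 0.07 over all genes). None passed, 3 had an unadjusted p under 0.05 (8.97% of all genes had one), and the smallest adjusted p was 0.422. Il13, which encodes one of the ligands, was lower in the protected arm by 0.95 ± 0.35 (adjusted p = 0.422), with 3.45, 16.3 and 5.72 in the diabetogenic arm and 2.79, 5.07 and 1 in the protected arm on days 3, 4 and 8. Il4, the gene of the other ligand, which was named after its values were seen, was higher by 0.71 ± 0.33 (adjusted p = 0.534), at 1.26, 2.91 and 1.76 against 2.98, 9.59 and 2.81. The feedback inhibitor genes Cish (0.95 ± 0.47, adjusted p = 0.558) and Socs1 (0.76 ± 0.34, adjusted p = 0.518), both known targets of STAT proteins, were positive on all 3 days and did not pass.

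Of 30 other effectors of alternative activation, 21 were positive and 9 negative (median 0.29), and 3 passed, all higher in protected islets. This list too was chosen with earlier results known, so its p-values are a description. Ccl24, a chemokine for eosinophils, differed by 4.51 ± 0.49 (adjusted p = 2.42e-06 in limma). Untreated islets gave 1.12, the diabetogenic arm 4.20, 10.8 and 1.26, and the protected arm 118, 476, 659 and 56.0, with the same day 5 peak as most members. Rnase2a, a ribonuclease of the eosinophil-associated family, differed by 4.02 ± 0.57 (adjusted p = 0.000269), and Fn1 by 2.10 ± 0.39 (adjusted p = 0.0122), although a dim second probe set of Fn1 gave -0.28. None of the 3 passed without the day block, Rnase2a and Fn1 did not pass after quantile normalization (adjusted p = 0.0594 and 0.189) or with probe sets averaged (0.494 and 0.698), and Fn1 did not pass under cyclic loess (0.0919) or without the day 3 pair (0.0711). Over the 13 alternatives the adjusted p ran up to 0.9997 for each, from 3.27e-15 for Ccl24, 1.35e-09 for Rnase2a and 0.000506 for Fn1. Ccl17, a chemokine for CCR4-bearing T cells, resembled Tgm2 in standing above untreated islets (3.00) in both arms, at 132, 328 and 362 against 559, 2417 and 1070 on days 3, 4 and 8. Its difference of 2.16 ± 1.56 did not pass (adjusted p = 0.691), though it did without the day 4 pair (7.04e-12, up to 0.9997 over its alternatives).

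Of the transcription factors linked to the programme (10 fitted, 7 positive and 3 negative, median 0.23), none passed and 1 had an unadjusted p under 0.05. Only 2 of them had the same sign on all 3 days. These were Egr2 (1.18 ± 0.36, adjusted p = 0.344), a zinc finger factor, and Kdm6b (0.73 ± 0.36, adjusted p = 0.569), a histone demethylase. Other probe sets gave 0.58 for Egr2 and -0.25 and -0.17 for Kdm6b. The genes of classical activation were split, with 10 positive and 11 negative of 21 (median -0.09), none passing and 10 at an unadjusted p under 0.05. Cxcl9, an IFN-γ-induced chemokine, was lower in protected islets by 2.27 ± 0.54 (adjusted p = 0.114, and 0.51 lower by a dimmer probe set), and the formyl peptide receptor gene Fpr2 by 1.36 ± 0.39 (adjusted p = 0.301). In limma without the day 4 pair both passed (0.00032 and 0.0201), and Cxcl9 also without the day 8 pair (0.00253), under cyclic loess (0.00397) and with the filter at 4 arrays (0.00983), while without the day block the adjusted p of both was 0.9997. Socs3, a cytokine signalling inhibitor, was higher by 1.20 ± 0.52 (adjusted p = 0.508), with 0.43 and 0.42 by its other probe sets.

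**Figure D5:**
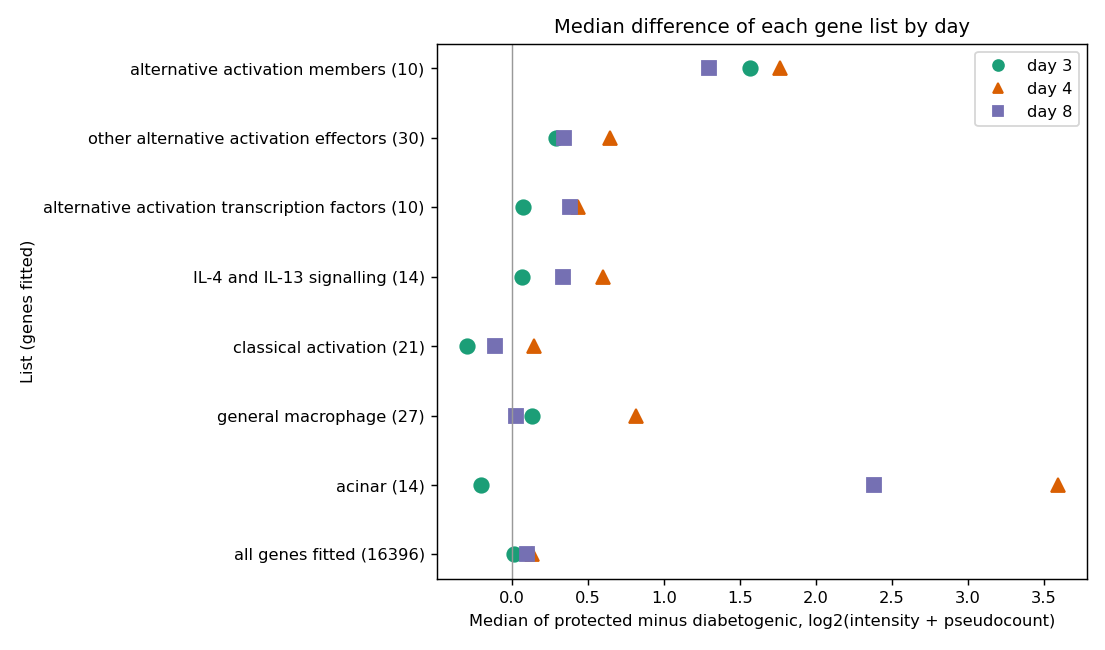
Median difference between the protected and diabetogenic arrays for each gene list on days 3, 4 and 8, on the log2(intensity + 2.155) scale, with the number of genes fitted in brackets. The members stand at 1.57, 1.77 and 1.30, general macrophage genes at 0.13, 0.82 and 0.03, acinar genes at -0.20, 3.59 and 2.38, and all genes between 0.02 and 0.13. The members were chosen with this contrast in view, so nothing is read from their place relative to the other lists.

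Of 27 general macrophage genes 23 were positive over the 3 days (median 0.48) and none passed in limma (1 at an unadjusted p under 0.05). By day their median was 0.13, 0.82 and 0.03 (days 3, 4 and 8). The medians of the members, 1.57, 1.77 and 1.30, are not set against these, since the members were chosen on this contrast, and the part of macrophage number in their differences was not tested. The summed intensity of the 27 general macrophage genes was 177 in untreated islets. It was 740, 424 and 4258 in the diabetogenic arm and 844, 3243, 3741 and 3918 in the protected arm. Such a sum follows its brightest probe sets. On day 8 of the diabetogenic arm these were Csf1r (1067), Lyz1 (891), Laptm5 (883) and Tyrobp (574). On day 8, 6 of the 10 members lay below the array median in the diabetogenic arm and 0 in the protected arm, against 40.4% and 31.1% of all genes. The largest list members with 1 sign on all days were Lgals3 (1.36 ± 0.80, adjusted p = 0.618), Laptm5 (1.24 ± 1.23, adjusted p = 0.781) and Ctss (0.88 ± 0.71, adjusted p = 0.723). Their differences rested mostly on day 4, at 3.64, 3.08 and 2.20, and other probe sets of Laptm5 gave -0.96 to 0.87.

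Several members are also made by other cells that a captured islet could hold. The 6 eosinophil markers fitted summed to 13.2 to 29.5 on all 8 arrays, where the granule protein genes Epx and Prg2 stood at 1.56 to 4.71 and 2.38 to 6.17. A further granule protein gene, Prg3, reached 10.1 on day 4 of the diabetogenic arm, and Alox15 reached 10.7 on day 8 of the diabetogenic arm and 10.3 on day 5 of the protected arm. Neutrophil markers, which matter for Chil3, summed to 44.4 to 72.3 on 7 arrays and to 120 on day 5 of the protected arm. Acinar genes, a sign of tissue around the islet, were 14 of 14 positive (median -0.20, 3.59 and 2.38 on days 3, 4 and 8; 0 passing, 11 at an unadjusted p under 0.05), with sums of 2352, 331 and 376 in the diabetogenic arm and 1993, 7040 and 2109 in the protected arm on the matched days. Stromal markers summed to 77.8 in untreated islets, to 80.2, 77.9 and 366 in the diabetogenic arm and to 95.1, 98.8, 339 and 735 in the protected arm, and markers of endothelial cells, which also make Tgm2, to 26.4 to 82.4 over all arrays. These sums too follow their brightest probe sets. Col1a2 stood at 428 in the stromal sum of day 8 in the protected arm. Lcn2 (45.4) and S100a8 (38.2) led the neutrophil sum of day 5. The part of all these cells in the members' differences was not tested.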

How the data were processed

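The authors deposited 1 linear intensity per probe set and array (45101 probe sets, 8 arrays), in a single table. The method of summary and scaling was not given in the sources used. Per the labels' protocols, islets were captured by laser from methanol-fixed, eosin-stained frozen sections and the RNA of each pool was amplified and labelled with biotin. Amplification from such small inputs favours 3' ends and can widen the spread of dim transcripts.

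Intensities were analysed as log2(intensity + 2.155), the median over arrays of the 25th percentile. Array medians lay within 0.21 of each other (limit 0.3), so the deposited scale was kept. Gene symbols come from the 2016 platform annotation, which gives 932 probe sets several symbols and 9211 none. Probe sets reaching the array median on 2 or more arrays were kept, control probe sets were left out, and the probe set with the highest mean log2 value stood for a gene, leaving 16396 genes. limma 3.58.1 (R 4.3.3, variance trend, Benjamini-Hochberg, threshold 0.05) compared the arms over 6 arrays with day as a block, paired by the day in the labels, and each arm with the untreated array over 8 arrays. The matched-day fit had 2 residual degrees of freedom per gene against 29.99 from the trend, so its SEs rest mostly on genes of like level. Each fit was tested on simulated data. Sequences came from RefSeq tables and were aligned with Biopython 1.88 (match 2, mismatch -1, gap opening -3, extension -0.5).

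The members and the gene lists were chosen with earlier results of these data known. Genes named beyond the members were those passing, and the 3 largest with 1 sign on all 3 days, in each activation list, the 3 largest macrophage genes, and the nearest profiles. Scaling, pseudocount, filter, choice of probe set, the day block and single arrays or pairs were varied as alternatives.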

Additional observations from a re-analysis of the deposited data

Results flagged for a closer look

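Mgl2 was highest in the protected arm on day 5 (26.8), and the gap to the next protected array made up 0.907 of the range of the 4 log2 values, above the 95% limit for a single value standing apart. That limit picks out about 1 in 20 groups of replicates by chance. The 4 arrays are different days and not replicates, so neither the limit nor this rate holds for them, and the value is only a flag.

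Dab2 lay above the untreated array on all 4 protected arrays, with a mean log2 difference of 1.95, and below it on all 3 diabetogenic arrays. The difference between these changes was not tested here, since the arm contrast was in view when the gene was chosen.

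The probe set that the annotation assigns to both Chil4 and Chil3 entered no comparison, and reached 80.1 on day 5 of the protected arm against 3.04 in untreated islets.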

How the results depend on the processing

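All 10 members stayed positive between the arms under the 13 alternatives tried, with medians of 0.93 to 1.90, and 122 values moved by less than the SD between days. The 8 others were Tgm2 under cyclic loess (0.28) and with probe sets averaged (0.92), Dab2 with probe sets averaged (0.64), Retnla (1.64), Cd163 (1.10), Mgl2 (0.50) and Dab2 (1.18) with the pseudocount raised to 8.62, and Mgl2 (1.22) with it lowered to 0.539. Changing the filter, testing every probe set or dropping the day block left each member's difference the same by construction. Averaging cannot move a gene with 1 probe set. Neither leaving out a day pair nor changing the pseudocount can turn a gene negative that was positive on all 3 days, as 9 of the 10 were. Such values among the 122 say nothing about stability of the sign. Those left the same by construction say nothing about stability of size either. The 18 genes called between the arms became 1 after quantile normalization or with probe sets averaged, 8 with the larger pseudocount, 10 without a filter and 51 with a filter at 4 arrays. Without the replicate block, the pairing by day, 0 genes passed (272 at an unadjusted p under 0.05 in limma). Leaving out 1 day pair gave 33 to 69 genes, 69 without day 3 (13 of them among the 18), 33 without day 4 (9) and 40 without day 8 (14). Of the 18, 15 were higher in the protected arm, against 8 of 16 under cyclic loess. Between the protected arm and untreated islets 0 genes became 1 after quantile normalization and 1 with every probe set tested, and 0 to 2 when an array was left out, 1 without the protected array of day 3 and 2 without the diabetogenic array of day 4. Tgm2 was among the last (5.68 ± 0.72, adjusted p = 0.0155 in limma, against 0.0155 to 0.9999 over its alternatives). The mean of Chil4 stayed lower than in untreated islets under all 16 alternatives. On day 3, however, Chil4 was level with untreated islets, at -0.02 in the protected and 0.08 in the diabetogenic arm. Its drop lay on the later arrays, which differed from the untreated one in their spiked controls. The part of that difference in the drop was not tested. The comparisons with untreated islets share 1 estimate of spread. Leaving out the diabetogenic array of day 4 therefore changed only the SE of Tgm2 in the protected arm, from 1.18 to 0.72, and not its difference. The causes of the other changes were not tested. With 1 pool per arm and day, the number of arrays limits the precision, and values near 1 lie at the bottom of the scale.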
